A study of Spodoptera frugiperda with 3 samples.

Results

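The response of *Spodoptera frugiperda* Sf9 cells to repression of the small nucleolar RNA Sf-15 was read from 2 RNA libraries, 1 of normal cells (named Sf9) and 1 of cells that were given an antisense oligonucleotide against this snoRNA (named ASO). Every assembled transcript (unigene) with at least 10 raw fragments in either library was taken, which gave 38919 of the 42041 unigenes of the series. A further 3082 had a fragment in one of them but fewer than 10 in each. Both groups were Sf9 cells, a continuous line from the ovary of the fall armyworm, at passages 15 to 18 and held in Grace medium with fetal bovine serum. Normal cells received nothing according to the labels, and the ASO cells received the oligonucleotide in a lipid transfection reagent. The oligonucleotide is a gapmer with a phosphorothioate backbone and a Cy5 label. The labels give 2 μg of plasmid or oligonucleotide, while the methods state the oligonucleotide as a concentration, and the time between transfection and harvest of the sequenced cells is not given in the sources used here. No library of cells transfected with a control oligonucleotide was analysed here, so transfection and the loss of Sf-15 cannot be told apart. The labels call the snoRNA Bm-15, its name in the silkworm. The third library of the series, named Sf-15, came from cells given a plasmid in which an *actinA3* promoter drives the snoRNA and another drives EGFP. It is used only for values set beside those of ASO and Sf9.

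C/D box snoRNAs are short nuclear RNAs that hold fibrillarin and its partner proteins, and by base pairing they guide 2′-*O*-methylation of ribosomal and spliceosomal RNA. An antisense gapmer has a core of DNA between modified ends. Once it pairs with its target in the nucleus, RNase H cuts the RNA strand. According to the labels, mRNA was isolated with oligo(dT) beads or by removal of rRNA. The unigenes carry assembly names only, so the level of Sf-15 itself was not analysed here and no gene name or role is given to a unigene, apart from the study's own list of apoptosis unigenes. Contigs with the same CL number were put in 1 cluster by the assembly because their sequences are alike, as allelic, spliced or related transcripts are, whereas a single unigene has no such partner.

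The 2 libraries were of nearly equal depth, with 19.6 M (mega) fragments in Sf9 and 19.7 M in ASO, and the Sf-15 library had 18.0 M. The median fragments of the members were 43 in Sf9 and 47 in ASO. With 1 library per condition there is no spread between cultures, so no difference has a replicate check, and no p-value is given. Exact 95% intervals of a log2 ratio, computed from the fragments of both libraries, cover counting error only.

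Most unigenes stood at a similar level in both libraries. The log2 ratio of ASO to Sf9 had a median of 0.05 over the 38919 members, with quartiles of -0.40 and 0.56, and 58.8% of the members lay within 1.5-fold. Past 2-fold, 4457 members were higher in ASO and 3084 lower, which are 11.5% and 7.92% of the members. Many of these ratios rest on few fragments. The whole exact 95% interval lay past 2-fold for 503 higher members and 494 lower members, or 1.29% and 1.27%. This near balance depends on the scale, since totals without the most abundant unigene gave 862 and 320, and TMM scaling, which trims extreme ratios, gave 450 and 548. Past 4-fold there were 729 higher and 628 lower members, of which 39 and 66 had the whole interval past 4-fold. At each limit the counts by the point ratio include 32 members with 0 fragments in Sf9 and 32 with 0 in ASO. These have no finite ratio, and their medians in the other library were only 12.5 and 12 fragments. Past 16-fold there were 48 and 74, of which 6 and 8 had the whole interval past that limit. Past 16-fold there were thus more lower than higher members, whereas past 2-fold and past 4-fold the higher members were the more numerous by the point ratio. Past 2-fold this order turned, to 3342 higher and 3606 lower, when each ratio was set against the median of its bin of length and fragments, an alternative added after the data were seen.

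The higher and lower members differed in length and in the share of contigs of clusters. The 503 members with the whole interval above 2-fold had a median length of 580 nt and medians of 17 fragments in Sf9 and 70 in ASO. The 494 members with the whole interval below had a median length of 380 nt and medians of 78.5 fragments in Sf9 and 15 in ASO. The order of the fragments follows from the call, and in the larger library the medians were much alike, at 70 and 78.5. Of the lower ones, 65.4% were shorter than 500 nt, against 45.9% of the higher ones and 46.4% of all members. A length of 2000 nt or more was found for 3.24% of the lower, 17.1% of the higher and 14.5% of all members. Contigs of clusters made up 13.0% of the lower, 24.5% of the higher and 24.5% of all members. These shares describe the pair of libraries and were not tested.

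In their weight within the library the 2 sides were far from equal. The 503 higher members held 2.50% of the fragments of Sf9 and 16.4% of those of ASO, while the 494 lower members went from 1.95% of Sf9 to 0.727% of ASO. A single unigene made most of the gain. CL1590.Contig3 (8423 nt) had 360287 fragments in Sf9 against 2555872 in ASO and 3400336 in Sf-15, and so took 1.84% of Sf9 and 12.9% of ASO. Its gain of 11.1 percentage points was 59.3% of the summed gains of all members. The other members with large gains were Unigene21105 (1367 nt), at 0.0806% of Sf9 and 1.37% of ASO, CL1590.Contig2 (1047 nt), at 0.136% and 0.467%, CL183.Contig7 (3987 nt), at 0.0747% and 0.297%, and CL183.Contig8 (3406 nt), at 0.0422% and 0.188%.

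The losses were spread more evenly over abundant unigenes. Unigene16649 (482 nt) lost the most, from 121038 fragments or 0.618% of Sf9 to 50469 fragments or 0.256% of ASO, a log2 ratio of -1.27 (exact 95% interval -1.29 to -1.26). The Sf-15 library had 73693 fragments of it. CL1048.Contig2 (1585 nt) went from 1.01% of Sf9 to 0.684% of ASO with a log2 ratio of -0.56. Unigene8971 (908 nt), Unigene21590 (897 nt) and CL1206.Contig2 (531 nt) had log2 ratios of -0.73, -0.73 and -0.70, respectively. Of these 5 unigenes only Unigene16649 was past 2-fold.

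Of all fragments 50% came from the 397 most abundant unigenes in Sf9 and from 292 in ASO. When CL1590.Contig3 was set aside in both libraries, the numbers were 424 and 509, so the rest of the ASO library was spread over more unigenes than that of Sf9. Leaving CL1590.Contig3 out of the totals also raised every log2 ratio by 0.17. The median of all members was then 0.23, with 6108 members higher and 2207 lower past 2-fold, so that 73.5% of the members past 2-fold were higher in place of 59.1%. By the whole interval the share of higher members was 72.9% in place of 50.5%. TMM scaling changed every ratio by -0.03 and left 57.5% higher by the point ratio and 45.1% by the interval. Values below are on the scale of all mapped fragments, and a log2 ratio of ASO to Sf9 between -0.17 and 0 lies above 0 when CL1590.Contig3 is left out of the totals.

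The share of members past 2-fold depended on abundance. Members were put in bins by the mean of their fragments in both libraries, which favours neither direction. From 20 to under 50 fragments, 12.4% of 9701 members were higher past 2-fold and 7.31% lower. From 200 to under 500 fragments these shares were 3.17% and 3.10% of 4096 members, and from 1000 to under 5000 they were 1.09% and 1.52% of 2302. At 5000 fragments and over, 10 of 499 members, or 2.00%, were higher and 8, or 1.60%, lower, above the shares of the bin before. By the whole interval the shares showed no steady decline with abundance. From 20 to under 50 fragments they were 1.22% higher and 1.28% lower, and from 200 to under 500 they were 1.07% and 1.39%. They were lowest from 1000 to under 5000, at 0.738% and 0.956%. At 5000 and over they were 2.00% and 1.60%, from the same 10 and 8 members. A member with a mean under 10 fragments has unequal counts by the rule that chose it, and the 2370 members of this kind, with 36.0% higher and 27.3% lower, say nothing on the response. The rule made little difference at its limit. The 747 members with 10 fragments in their larger library had a median log2 ratio of 0.14, and the 637 unigenes with 9 had 0.16.

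Counting error gave only part of the spread. At 20 to under 50 fragments the log2 ratios had an SD of 0.82, of which counting error alone gives 0.40, and ratios against 0 fragments were left out of both. At 200 to under 500 fragments the SD was 0.57 against 0.12 from counting, and at 1000 to under 5000 it was 0.44 against 0.05. At 5000 and over the SD was wider again, at 0.50 against 0.02. Over the 13211 members with a mean of at least 100 fragments, an SD of 0.55 remained once the counting variance was taken off. Whether that remainder is the spread that separate cultures of Sf9 cells would show was not tested, since a second Sf9 library was not analysed here. Accordingly the exact interval left out a ratio of 1 for 16546 members, or 42.5%, of which 8328 were higher and 8218 lower.

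The middle of the distribution also moved with abundance. The median log2 ratio was 0.19 at 10 to under 20 fragments, 0.16 at 20 to under 50, 0.11 at 50 to under 100 and 0.02 at 100 to under 200. It was -0.05 at 200 to under 500, -0.12 at 500 to under 1000, -0.20 at 1000 to under 5000 and -0.31 at 5000 and over (95% binomial interval of this median -0.33 to -0.28). Such intervals take the unigenes as independent draws and hold no spread between cultures. The medians from 200 to under 1000 fragments are among those that lie above 0 without CL1590.Contig3 in the totals. Rare unigenes were slightly higher in ASO and abundant ones lower, with a difference of 0.47 between 20 to under 50 fragments and 5000 and over. By FPKM (fragments per kilobase of unigene and M mapped fragments), which is a level per length, the medians were 0.46 below a mean of 1 FPKM, 0.18 at 1 to under 5, -0.01 at 5 to under 20, -0.22 at 20 to under 100 and -0.37 at 100 and over.

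**Figure D1:**
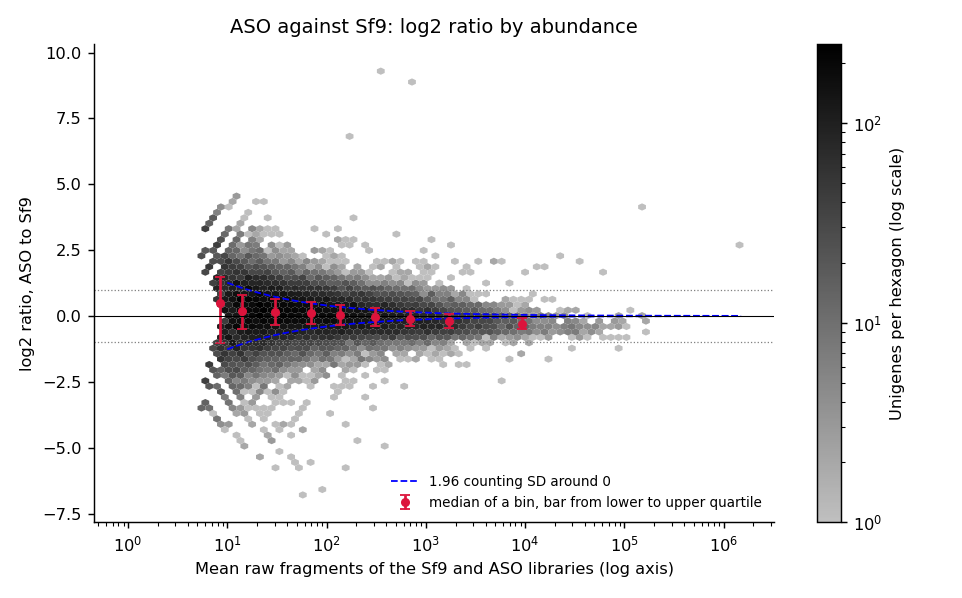
The log2 ratio of ASO to Sf9 (vertical axis) is plotted against the mean raw fragments of both libraries (horizontal axis, logarithmic) for the members with a fragment in each library, shaded by the number of unigenes per hexagon. The red points are bin medians with bars from the lower to the upper quartile. They go from 0.19 at 10 to under 20 fragments to -0.31 at 5000 and over, and the dashed lines mark the counting error around 0.

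Longer unigenes were higher in ASO. At 4000 nt and over, 145 of 1256 members, or 11.5%, were higher past 2-fold and only 2, or 0.159%, were lower, with a median log2 ratio of 0.35. Most of these were contigs of clusters, 855 with a median of 0.43, of which 117 or 13.7% were higher past 2-fold. The 401 single unigenes of this length had a median of 0.15, and 28 or 6.98% were higher. Their median mean was 1403 fragments, against 147 for the contigs. At 2000 to under 4000 nt the shares were 9.01% and 1.12% of 4394 members. Among the 8593 members under 300 nt both directions were frequent, at 17.9% and 16.1%, and their median was 0.07. Short unigenes have few fragments, at a median mean of 14 against 288.5 for the longest, so length was read at like numbers of fragments.

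At like numbers of fragments the gradient with length remained. With a mean of 100 to under 500 fragments, the median log2 ratio was -0.21 at 300 to under 500 nt (95% binomial interval -0.25 to -0.18), -0.16 at 500 to under 1000, 0.03 at 1000 to under 2000, 0.21 at 2000 to under 4000 and 0.34 at 4000 and over (0.27 to 0.38). This is a difference of 0.55 between the shorter and the longest unigenes. The share of lower members went from 8.78% to 0.299% over the same range. With a mean of 20 to under 100 fragments the median went from 0.06 to 0.61, and with 500 and over from -0.40 to 0.12. The members under 300 nt were outside this order in the latter pair of abundance classes, at -0.09 for 100 to under 500 fragments and 0.06 for 500 and over, where there were only 33 of them.

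**Figure D2:**
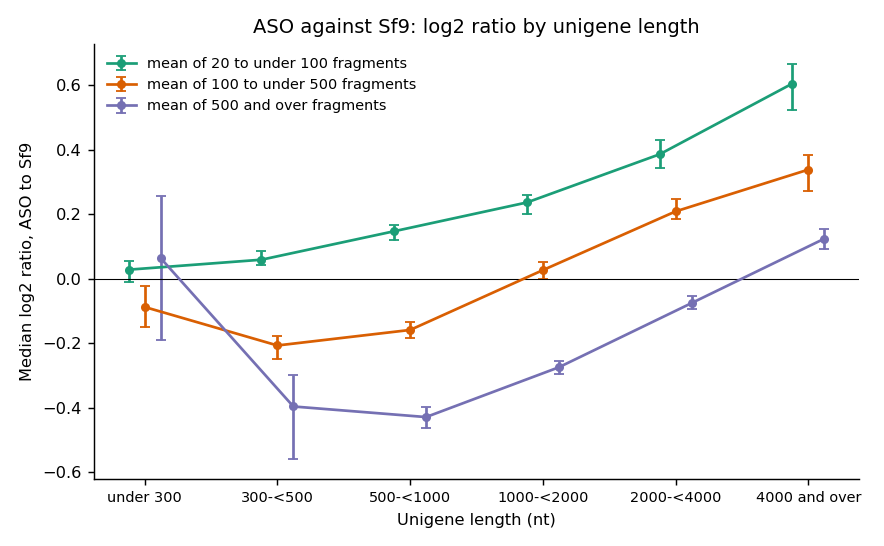
Median log2 ratio of ASO to Sf9 (vertical axis) by unigene length in nt (horizontal axis, 6 bins), with 1 line for each class of mean fragments and bars for the 95% binomial interval of the median. From 300 nt upwards the lines climb with length, in the middle class from -0.21 to 0.34, apart from the step from -0.40 to -0.43 in the most abundant class, and each more abundant class lies below the less abundant one.

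At a like level per length the gradient differed between classes of level. Below 1 FPKM the median log2 ratio was 0.31 at 1000 to under 2000 nt, 0.49 at 2000 to under 4000 nt and 0.67 at 4000 nt and over. At 500 to under 1000 nt it was 0.38, at a median mean of 10.5 fragments. The 35 members of 300 to under 500 nt had 1.45, at a median mean of 7 fragments. Most of them thus lay under a mean of 10, where the member rule makes counts unequal, and they say nothing on length. Between 1 and 5 FPKM the median log2 ratio was 0.17 at 300 to under 500 nt and 0.33 at 4000 nt and over, and between 5 and 20 FPKM it was -0.06 and 0.30. Between 20 and 100 FPKM it was -0.21 and 0.03, respectively, with -0.36 at 500 to under 1000 nt. At 100 FPKM and over, the 77 members of 300 to under 500 nt had a median of -0.54, and the 29 members of 4000 nt and over had -0.02. In sum over the library, unigenes of 500 to under 1000 nt held 23.6% of the fragments of Sf9 and 20.6% of those of ASO without CL1590.Contig3, while those of 2000 to under 4000 nt held 26.3% and 28.1%. Length and abundance together held only a small part of the spread. The medians of the bins of length and fragments took up 11.4% of the variance of the log2 ratios at a mean of at least 100 fragments, and 4.72% over all members with a fragment in both libraries.

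The gradient was set beside that of the other pairs of libraries, which share 1 library with this pair and are not independent of it. With a mean of 100 to under 500 fragments, the medians at 300 to under 500 nt and at 4000 nt and over were -0.37 and -0.14 for Sf-15 to Sf9, and -0.15 and -0.45 for Sf-15 to ASO. CL1590.Contig3 held 18.9% of the Sf-15 library, and the level of these medians moved with the scale. TMM scaling added 0.25 and 0.26, which gave -0.12 and 0.11 for Sf-15 to Sf9 and 0.11 and -0.19 for Sf-15 to ASO. Totals without CL1590.Contig3 added 0.27 and 0.10, and left the difference between the lengths of a pair as it was. Over all members with a mean of at least 100 fragments, the SD was 0.57 for ASO to Sf9, 0.49 for Sf-15 to Sf9 and 0.38 for Sf-15 to ASO. Among abundant members Sf-15 to Sf9 had the wider spread. From 1000 to under 5000 fragments its SD was 0.52 against 0.44 for ASO to Sf9, and at 5000 and over 0.54 against 0.50. In abundance, the median at 5000 fragments and over was -0.41 for Sf-15 to Sf9 and -0.07 for Sf-15 to ASO, or -0.16 and 0.19 with TMM scaling. None of these differences between pairs could be tested with 1 library each.

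**Figure D3:**
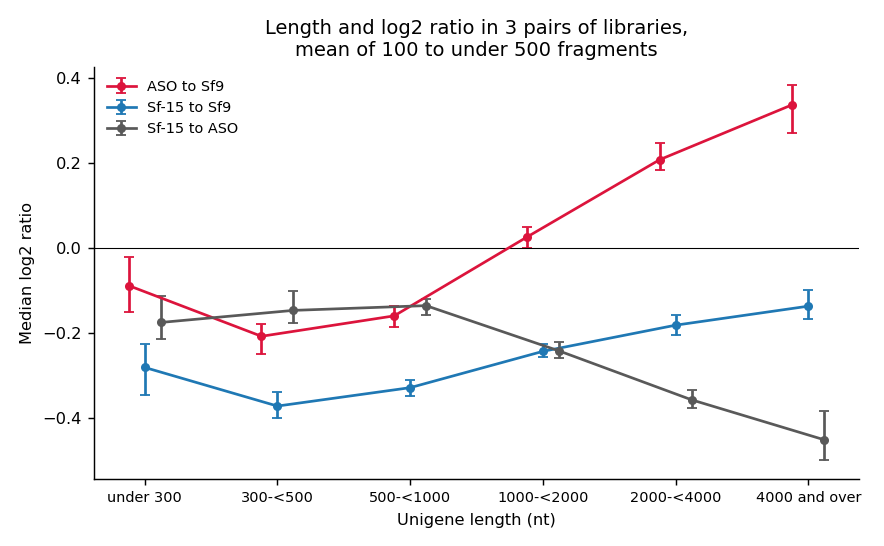
Median log2 ratio (vertical axis) by unigene length in nt (horizontal axis) at a mean of 100 to under 500 fragments, for ASO to Sf9, Sf-15 to Sf9 and Sf-15 to ASO, with bars for the 95% binomial interval of the median. The line of ASO to Sf9 reaches 0.34 at 4000 nt and over, that of Sf-15 to Sf9 reaches -0.14, and that of Sf-15 to ASO goes down to -0.45.

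Among members that reached 100 fragments in either library, the 4 with the interval farthest above 2-fold had 3 fragments or fewer in normal cells. Unigene13912 (1545 nt) had 3 fragments in Sf9 against 1511 in ASO and 2898 in Sf-15, with an exact 95% interval of the log2 ratio of ASO to Sf9 of 7.41 to 11.24. CL453.Contig2 (666 nt) had 1, 651 and 1275 fragments, and CL453.Contig1 (929 nt) of the same cluster had 3, 328 and 222, with intervals of 6.85 to 14.64 and 5.20 to 9.05. Unigene24276 (263 nt) had 0, 131 and 310, and was at least 43.3-fold higher in ASO when 3 fragments are set against the 0 of Sf9, with an exact 95% lower limit of 34.7-fold. All 4 were also present in the Sf-15 library, and in 3 of them it had more fragments than ASO.

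The next 6 were present in normal cells. Unigene21105 had 15788 fragments in Sf9 against 270001 in ASO and 201206 in Sf-15, and so was 17.0-fold higher in ASO (log2 ratio 4.08, exact 95% interval 4.06 to 4.11), at 589.7 FPKM in Sf9 and 10004 in ASO. Unigene12898 (833 nt) had 28, 346 and 298 fragments and so a log2 ratio of 3.62 (3.06 to 4.23). CL1137.Contig2 (847 nt) had 105, 932 and 2104 and a log2 ratio of 3.14 (2.85 to 3.44). CL1590.Contig3 was 7.04-fold higher, with a log2 ratio of 2.82 and an interval that is narrow because of its many fragments (2.81 to 2.82). CL1057.Contig1 (1265 nt) had 24, 233 and 233 fragments and a log2 ratio of 3.27 (2.66 to 3.94). CL1291.Contig2 (1966 nt) had 284, 2041 and 4075 and a log2 ratio of 2.83 (2.65 to 3.02). In each of the 6 both transfected libraries stood above Sf9. The members were chosen for their distance from this same Sf9 library, which favours such a position, so it is given as a description.

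The members farthest below 2-fold were short and of moderate level in Sf9. Unigene24655 (253 nt) had 178 fragments in Sf9 against 2 in ASO and 1 in Sf-15, with an exact 95% interval of the log2 ratio of ASO to Sf9 of -9.54 to -4.61. Unigene25675 (343 nt) had 110, 1 and 8 (-12.11 to -4.28), Unigene25831 (323 nt) had 146, 3 and 6 (-7.91 to -4.04), and Unigene25832 (325 nt) had 110, 2 and 1 (-8.86 to -3.91). In all 4 the ASO library was at 3 fragments or fewer, and the Sf-15 library was low as well.

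The other 6 had more than 3 fragments in ASO, and their ratios are given. Unigene25198 (343 nt) had 307 fragments in Sf9 against 6 in ASO and 5 in Sf-15, an ASO to Sf9 log2 ratio of -5.69 (exact 95% interval -7.15 to -4.55). Unigene11254 (632 nt) had 758, 25 and 31, with a log2 ratio of -4.93 (-5.57 to -4.36), and went from 61.2 to 2.00 FPKM. Unigene1303 (345 nt) had 421, 16 and 24 and a log2 ratio of -4.73. CL3138.Contig2 (771 nt) had 282, 17 and 15 and a log2 ratio of -4.06. Unigene18150 (475 nt) had 583, 50 and 85 and a log2 ratio of -3.56, and Unigene25705 (490 nt) had 115, 6 and 12 and a log2 ratio of -4.27. All 10 members were shorter than 800 nt, and 8 of them shorter than 500 nt. The Sf9 library stood above both others in each, which the choice of the members on this library favours here too.

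**Figure D4:**
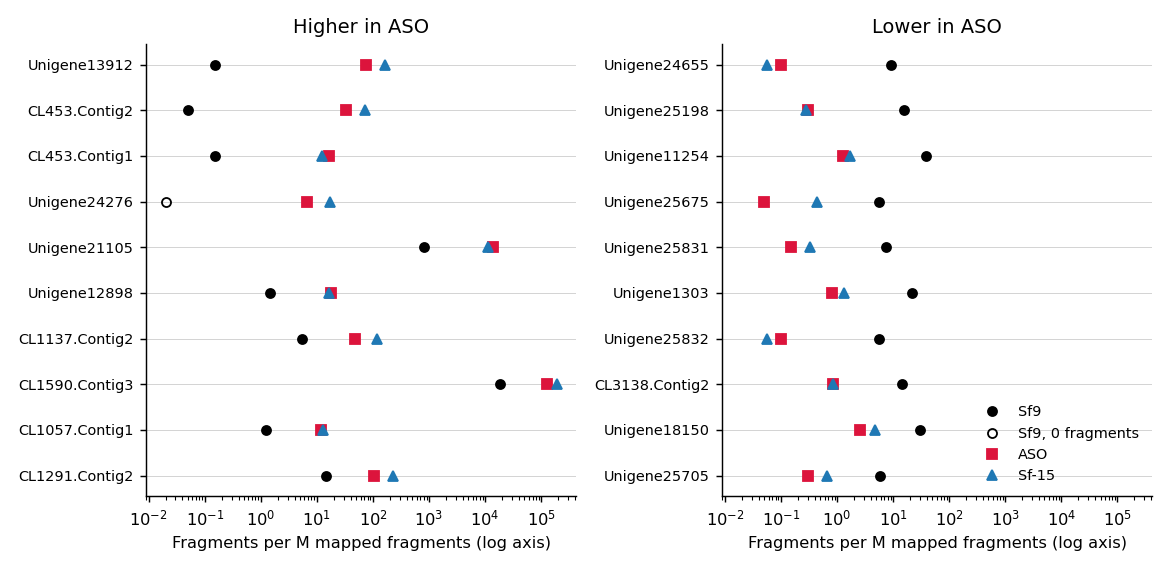
Fragments per M mapped fragments (horizontal axes, logarithmic) in the Sf9, ASO and Sf-15 libraries, 1 point per library, for the 10 members with the interval farthest above 2-fold (left) and the 10 farthest below (right), with an open circle for 0 fragments. The members were chosen for the distance of ASO from this Sf9 library, which favours an Sf9 point apart from the other points, as at 3 fragments for Unigene13912 against 1511 in ASO and 2898 in Sf-15.

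Few members were seen in 1 library of the pair alone. With 0 fragments in Sf9 and at least 10 in ASO there were 32, of 201 to 748 nt and a median of 12.5 fragments, and with 0 in ASO and at least 10 in Sf9 there were likewise 32, of 207 to 1691 nt and a median of 12. After Unigene24276, CL2990.Contig1 (748 nt) had the most fragments of the former, 63 in ASO and 46 in Sf-15, and it was at least 20.8-fold higher in ASO by the same floor of 3 fragments (exact 95% lower limit 16.5-fold). Its cluster did not go with it, since CL2990 as a whole went from 93474 fragments in Sf9 to 87277 in ASO, a log2 ratio of -0.11. Unigene29152 (385 nt) had 32 in ASO and 5 in Sf-15. Of the latter, Unigene25167 (248 nt) had 74 fragments in Sf9 against 0 in ASO and 4 in Sf-15, and Unigene25301 (267 nt) had 71, 0 and 3. They were at least 24.9-fold and 23.9-fold lower in ASO than in Sf9 by the same floor, with exact 95% lower limits of 19.7-fold and 18.9-fold. Unigene25869 (279 nt) had 43, 0 and 2. At least 10 fragments in the Sf-15 library were counted for 10 of the 32 that were at 0 in Sf9 and for 4 of the 32 that were at 0 in ASO.

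The members fell into 29368 single unigenes and 9551 contigs of 3788 clusters. Contigs of clusters had a median log2 ratio of 0.17 and single unigenes -0.01. Past 2-fold, 11.1% of the contigs were higher and 4.03% lower, against 11.6% and 9.19% of the single unigenes. The kinds differed in length and abundance too, since single unigenes under 300 nt numbered 8063 and contigs of that length 530. At 2000 to under 4000 nt, the contigs had a median of 0.28 at a median mean of 84.5 fragments, and the single unigenes had 0.00 at 823 fragments.

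Contigs of 1 cluster may not be separate measurements. In 127 groups within clusters, 297 member contigs in all, the contigs had exactly the same fragments in both libraries, for example CL375.Contig3 (4212 nt) and CL375.Contig6 (4079 nt) with 826 in Sf9 and 1385 in ASO each. Only 35 of these groups, with 74 contigs, had a mean of at least 50 fragments, and at low counts equal fragments can also be coincidence. Whether fragments were counted for more than 1 contig is not given in the sources used here, and the part of such counting in the values was not tested. With the contigs of each cluster summed, 33192 clusters and single unigenes had at least 10 fragments in either library, and 3623 of them were higher and 2809 lower past 2-fold. The whole interval was past 2-fold for 433 and 459 of them.

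Clusters with at least 2 member contigs numbered 2940 and held 8703 contigs, with a median of 2 and at most 53 contigs. Summed over its contigs, a cluster was higher past 2-fold in 146 cases and lower in 64, or 4.97% and 2.18%, and the whole interval was past 2-fold for 41 and 21. All member contigs were higher past 2-fold in 76 clusters and lower in 29.

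Over 2934 clusters with at least 2 member contigs seen in both libraries, the log2 ratios had an SD of 0.52 within clusters and 0.51 between, so that 49.8% of the variance lay between clusters, and counting error alone gives 0.38. The distance between the highest and the lowest contig was above 1 in 23.9% of them. Contigs with many fragments had log2 ratios closer together, but their counting error was smaller too, so this does not show that they were more alike. For the 739 clusters with at least 2 contigs of a mean of 100 fragments or more, the log2 ratios had an SD of 0.51 between clusters and 0.35 within, and counting error alone gives 0.14. Of the variance 67.7% thus lay between clusters. The SD between clusters was 0.51 in both sets, so the larger share went with the smaller SD within clusters, which includes counting error. The median distance between the highest and the lowest contig of such a cluster was 0.37, and it was above 1 in 65 of them, or 8.80%.

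The clusters farthest above 2-fold in their summed fragments were CL453, CL1137, CL1590, CL1256 and CL1291. CL453, with 2 contigs, had 4 fragments in Sf9 against 979 in ASO and 1497 in Sf-15, an ASO to Sf9 log2 ratio of 7.92 (exact 95% interval 6.56 to 9.80). CL1137 had 110, 951 and 2139 and a log2 ratio of 3.10 (2.81 to 3.40), nearly all from 1 of its 2 contigs. CL1590, with 3 contigs, had 392934, 2670796 and 3807552 and a log2 ratio of 2.75. Its contigs stood at 1.91 (CL1590.Contig1, 380 nt), 1.78 (CL1590.Contig2) and 2.82 (CL1590.Contig3), so the longest contig was also the one with the highest ratio. CL1291 had 725, 3526 and 6693 fragments and a log2 ratio of 2.27 (2.16 to 2.39), with its 2 contigs at 1.74 and 2.83.

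CL1256 had the most contigs of these, and all 8 were higher in ASO with the whole interval past 2-fold. Together they had 406 fragments in Sf9 against 2200 in ASO and 741 in Sf-15, an ASO to Sf9 log2 ratio of 2.43 (exact 95% interval 2.27 to 2.58). The contigs ranged from 2.08 for CL1256.Contig4 (2174 nt, 56 fragments in Sf9 and 238 in ASO) to 3.25 for CL1256.Contig2 (2246 nt, 14 and 134). Unlike the other 4 clusters, CL1256 had fewer fragments in Sf-15 than in ASO. The contigs of CL183, which held a pair of the largest gains and was looked at for that reason after its values were seen, were close together as well. Its 6 contigs of more than 300 fragments in Sf9 had log2 ratios of 1.84 to 2.18, among them CL183.Contig7 with 14633 fragments in Sf9 against 58651 in ASO and 54259 in Sf-15, while the short CL183.Contig1 (304 nt) and CL183.Contig3 (332 nt) had 1.01 and 0.99.

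The clusters farthest below were CL3288, CL3138, CL3255, CL2033 and CL91. CL3288 had 411 fragments in Sf9 against 54 in ASO and 61 in Sf-15, an ASO to Sf9 log2 ratio of -2.94 (exact 95% interval -3.38 to -2.53). CL3138 had 361, 52 and 55 and a log2 ratio of -2.81, but its contigs differed, with -4.06 for CL3138.Contig2 and -1.19 for CL3138.Contig1 (218 nt, 79 fragments in Sf9 and 35 in ASO). CL3255 had 10106, 2269 and 3978 and a log2 ratio of -2.17 (-2.23 to -2.10). Here CL3255.Contig1 (678 nt) stood at -2.47 with 9342 and 1705 fragments in Sf9 and ASO, and CL3255.Contig2 (779 nt) at -0.45 with 764 and 564. CL2033 had 4190, 1126 and 1125 and a log2 ratio of -1.91, with contigs at -1.94 and -1.58. CL91 had only 74, 13 and 39 fragments, a log2 ratio of -2.52 (-3.50 to -1.66).

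The 3 clusters with the most contigs, looked at after their values were seen, all stood above 0. CL28 (53 contigs of 543 to 12031 nt) had 11187 fragments in Sf9 against 17073 in ASO and 9949 in Sf-15, an ASO to Sf9 log2 ratio of 0.60 (exact 95% interval 0.56 to 0.63). Of its contigs 51 were above 0 and 18 were higher past 2-fold, but none had the whole interval past 2-fold, and many had the same or nearly the same fragments, such as 81 in Sf9 and 175 in ASO for both CL28.Contig24 (2477 nt) and CL28.Contig33 (2401 nt). The short CL28.Contig50 (543 nt) went the other way, with 73 fragments in Sf9 and 35 in ASO, a log2 ratio of -1.07 (-1.70 to -0.47). CL30 (47 contigs) had 1634 and 2484 fragments in Sf9 and ASO and a log2 ratio of 0.59 (0.50 to 0.68), with 46 contigs above 0. CL79 (43 contigs) had 9583 and 10660 and a log2 ratio of 0.14 (0.10 to 0.18), with 35 above 0. The intervals of these sums take each fragment as counted once.

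In 1229 of the 2940 clusters, or 41.8%, some member contigs were above 0 and others were not. Of all member contigs 11.1% were higher and 4.03% lower past 2-fold, or 1.29% and 0.670% by the whole interval. With such shares few clusters can hold both calls, and whether contigs of 1 cluster avoid this was not tested. Contigs past 2-fold in both directions were found in 14 clusters, and in 0 of them did the whole interval lie past 2-fold on both sides. The one with the most fragments, singled out after its values were seen, was CL1048, where CL1048.Contig2 held 197909 fragments in Sf9 and 135058 in ASO, CL1048.Contig1 (1398 nt) had a log2 ratio of -1.38 with 773 and 299, and the short CL1048.Contig3 (328 nt) had 1.54 (exact 95% interval 0.60 to 2.57) with 13 and 38. A contig could still go against its cluster. Of the 169 contigs with the whole interval past 2-fold in these clusters, 83 of the 112 higher and 28 of the 57 lower ones had a cluster sum past 2-fold on the same side, while the sum of 7 lay on the other side of 0. CL1057.Contig1, with its log2 ratio of 3.27, was 1 of the 7, since CL1057 as a whole went from 4877 fragments in Sf9 to 3854 in ASO, a log2 ratio of -0.35.

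**Figure D5:**
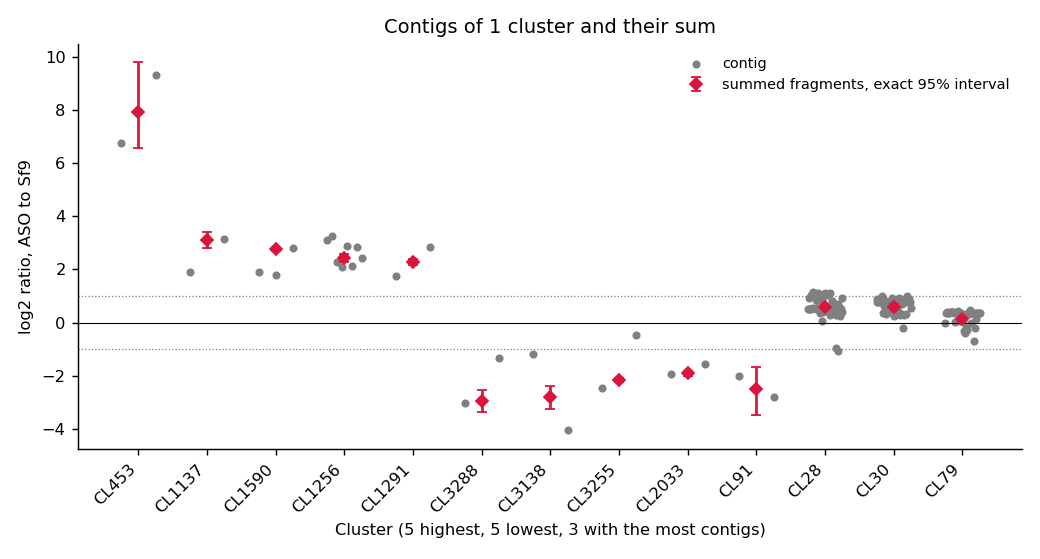
The log2 ratio of ASO to Sf9 (vertical axis) of each member contig (grey points) and of the summed fragments (red diamonds with exact 95% intervals) for 13 clusters (horizontal axis), the 5 farthest above 2-fold, the 5 farthest below and the 3 with the most contigs. In CL1256 all 8 contigs lie between 2.08 and 3.25, in CL3255 the contigs stand at -2.47 and -0.45, and in CL28 the contigs spread from -1.07 to 1.15.

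Apoptosis removes cells through caspases, which inhibitor of apoptosis proteins hold back. Calcineurin, a phosphatase that calcium activates, takes part in mammals by dephosphorylating Bad. The study lists 21 unigenes of this pathway by assembly name and does not pair the names with genes. Among them it reports calcineurin (*Cn*) as raised upon repression, by sequencing and by PCR. Which unigene that is could not be told here. The log2 ratio that the study prints for *Cn* is far above that of every unigene on the list, and the reason was not tested. The highest log2 ratio of ASO to Sf9 among the 21 was 1.62. The study chose them on these libraries as higher in ASO, so their common direction is no independent evidence. All 21 had a log2 ratio of ASO to Sf9 above 0, with a median of 0.39 (95% binomial interval 0.30 to 0.71), against 0.05 for all members. Past 2-fold were 3 of them, or 14.3%, near the 11.5% of all members, and 1 had the whole interval past 2-fold. The study calls fewer of the list significantly increased than lay past 2-fold here. With 1 FPKM added to both libraries only 1 was past 2-fold.

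The one with the whole interval past 2-fold was CL798.Contig2 (3295 nt), with 318 fragments in Sf9 against 988 in ASO and 277 in Sf-15, an ASO to Sf9 log2 ratio of 1.62 (exact 95% interval 1.44 to 1.81). Unigene18724 (887 nt) had 107, 228 and 87 fragments and a log2 ratio of 1.08 (0.74 to 1.42), and Unigene15078 (3954 nt) had 1091, 2258 and 828 and 1.04 (0.93 to 1.14). Below 2-fold, Unigene22252 (1260 nt) had 83, 143 and 64 fragments and a log2 ratio of 0.77 (0.37 to 1.18), and Unigene5382 (3100 nt) had 668, 1100 and 578 and 0.71 (0.57 to 0.85). These 5 stood apart from equality by their counting intervals.

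The next members of the list were Unigene15004 (3385 nt), with 706 fragments in Sf9 and 997 in ASO, and CL2078.Contig2 (2344 nt), with 134 and 199, at log2 ratios of 0.49 and 0.56. Unigene4153, Unigene17709, Unigene3058, Unigene10575, Unigene113, CL3470.Contig2 and Unigene6483 had log2 ratios of 0.39, 0.37, 0.35, 0.32, 0.30, 0.25 and 0.22, each with an interval above 0. Unigene18734 (1816 nt) had the most fragments with 2092 in Sf9 and 2283 in ASO, at 58.8 and 63.7 FPKM, and the lowest ratio, 0.11 (exact 95% interval 0.03 to 0.20). For the other 6 the interval included 0. They were Unigene17333 with a log2 ratio of 0.32, Unigene6957 with 0.16, CL1915.Contig2 with 0.15, Unigene6917 with 0.46, CL2476.Contig1 with 8 and 15 fragments, and CL2476.Contig2 with 3 and 4 fragments, which was under the limit of 10 and is not a member.

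The list was long in sequence compared with the members, with a median of 1902 nt against 552 nt, and length moved with the ratio as given above. Set against the median of the members in the same bin of length and fragments, which ranged from -0.32 to 0.30 for the list, 19 of the 20 listed members lay above it, by a median of 0.42. This comparison was added after the data were seen, and it does not undo the choice of the list by direction.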

How the data were processed

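The authors trimmed and filtered the reads and built the unigenes *de novo* from the clean reads (Trinity, TGICL and Phrap). How reads were aligned and counted is not given in the sources used here. The deposited tables hold raw fragment counts and the authors' FPKM for each unigene, with 1 library per condition. Their log2 ratio, p-value, false discovery rate and direction columns were not used. FPKM recomputed from the counts and library totals differed from the deposited values by at most 5e-05. The suffix shared by all names was dropped, and 0 names matched the *S. frugiperda* reference gene table.

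The log2 ratio was that of fragments per library total, which equals the ratio of FPKM, without pseudocount. Exact 95% intervals (Clopper-Pearson, conditional on the summed fragments) were run on simulated counts. These held counting error only, so the simulation cannot tell how the intervals cover spread between cultures. A count of 0 was set at 3 fragments for bounds. Named in each direction were the 10 unigenes with the interval farthest past 2-fold and at least 100 fragments in either library, the 5 with the largest change in share, the 5 clusters farthest past 2-fold, the 3 with most fragments against 0, and the apoptosis list. Members and lists were chosen with earlier results of these data known. Alternatives were other scalings (edgeR 4.0.16, DESeq2 1.42.0), filters, fold limits, 1 FPKM added, an exact binomial p, summed contigs and, added after seeing the data, ratios centred on their bin. Python 3.11.15, scipy 1.17.1 and R 4.3.3 were used.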

Additional observations from a re-analysis of the deposited data

How the results depend on the processing

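No paired analysis was possible because there is a single library on each side, and for the same reason no library could be left out. Against 4457 higher and 3084 lower members past 2-fold, at least 10 fragments in both libraries gave 2291 and 1476, at least 100 in either gave 655 and 511, a 4-fold limit gave 729 and 628, and 1 FPKM added gave 1859 and 1654. Against 503 higher and 494 lower members with the whole interval past 2-fold, the same filters gave 297 and 285, and 216 and 222, and the 4-fold limit gave 39 and 66. Totals without the unigene with the most fragments gave 862 and 320, and a point ratio past 2-fold with an adjusted exact binomial p of at most 0.001 gave 1312 and 1040. The stricter filters and limits leave fewer by construction. Centring on bins of length and fragments, added after seeing the data, gave 3342 and 3606 past 2-fold, so that the lower members became the more numerous. With TMM scaling 450 members were higher and 548 lower by the interval, and with median-of-ratios scaling 436 and 567.

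The SD at a mean of at least 100 fragments was 0.55 with the contigs of a cluster summed, in place of 0.57. The difference between the longest and the shorter unigenes was 0.45 among single unigenes only, in place of 0.55. Cluster sums past 2-fold were 95 higher and 42 lower with at least 100 fragments, in place of 146 and 64. Of the apoptosis list, 1 unigene was past 2-fold with 1 FPKM added, in place of 3. Of the unigenes named by the rule, the 48 with a fragment in both libraries were recomputed. None changed sign, which is no check, since 1 FPKM added to both libraries cannot change a sign. The shifts by scaling were likewise too small to do so. With TMM scaling the ratio left its own exact 95% interval for 10 of the 48, and with median-of-ratios scaling for 10. With totals without CL1590.Contig3 it did so for 18, and with 1 FPKM added for 10.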
